A study of Mus musculus with 12 samples.

Results

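The transmembrane mucins Muc1, Muc4, Muc13 and Muc20 were followed in RNA-Seq of mouse tumor organoids in which SMAD4 could be put back. These 4 genes were taken by name from the 24906 genes listed per library, and all 4 were above the low-value filter in both culture environments. The organoids came from macroscopic small intestinal tumors of mice with floxed Smad4 (Smad4f/f), an activated BRAFV600E/+ allele and Villin-CreERT2, a Cre driven in the intestinal epithelium. Every group was therefore Smad4KO and BRAFV600E/+ and was labelled as carrying pINDUCER-SMAD4, a lentiviral vector whose SMAD4 insert is switched on by doxycycline (dox). Organoids received 4 µg/mL dox for 48 h or, by the study's methods, vehicle. The libraries labelled as without dox are called untreated here. In BME, a basement membrane extract for 3D growth, lines 682, 700 and 889 were sequenced untreated (3 libraries) and lines 700 and 889 with dox (2 libraries), and 1 further library of line 682 is labelled as dox (Mock). Its labels conflict, because the title and genotype are written like those of the induced libraries. Plastic cultures of lines 560, 700 and 889 were each sequenced without and with dox, giving 3 libraries of either kind. The number names an organoid line, which the libraries of that number share, and whether a line is 1 clone is not stated.

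Transmembrane mucins are large glycoproteins that stay anchored in the apical membrane of epithelial cells and carry dense O-linked sugar chains on their extracellular part. Together with the secreted mucins of goblet cells they form the barrier between the intestinal epithelium and the lumen, and their cytoplasmic tails and EGF-like domains take part in signaling. Muc13 is known from the brush border and goblet cells of the intestine. Muc1 binds β-catenin and receptor tyrosine kinases through its tail, Muc4 is a ligand-like partner of ERBB2, and Muc20 is known to act on signaling from the receptor MET. The comparison asks whether these genes respond when SMAD4, through which TGFβ and BMP signals both reach their target genes, is expressed again in tumor epithelium, and whether the response differs with the extracellular environment.

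The promoters of Muc13 and Muc20 are shown because Muc13 was higher with dox in all 5 dox pairs and Muc20 was not. Of 11977 genes, 8.7% were higher in all 5. On the log2(FPKM + 1) scale Muc20 changed by -0.02 and -0.44 in the BME dox pairs, beside 29.5% of 12996 genes lower in both. On plastic it changed by -1.46 in line 700, -1.01 in line 889 and 0.25 in line 560, and in the mock pair by 0.73. Each window ends at the base before an annotated start and reads 5′ to 3′ on the strand of the gene (RefSeq, GRCm38.p6). Of the second Muc13 window the first 100 of 250 bases are printed. Capitals mark matches to CAGAC, a box bound by SMAD proteins, and to TGANTCA, the letters of an AP-1 site.
Muc13 first start, chr16:33793787-33794036, plus strand: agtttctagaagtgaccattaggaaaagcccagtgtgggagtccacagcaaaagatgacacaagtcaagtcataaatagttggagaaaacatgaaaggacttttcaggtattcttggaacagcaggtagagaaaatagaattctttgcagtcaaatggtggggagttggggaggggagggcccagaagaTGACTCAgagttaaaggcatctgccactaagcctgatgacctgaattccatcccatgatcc
Muc13 second start, chr16:33794239-33794338, plus strand: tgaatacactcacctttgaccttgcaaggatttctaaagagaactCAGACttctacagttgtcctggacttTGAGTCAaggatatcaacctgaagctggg
Muc20, chr16:32797436-32797685, minus strand: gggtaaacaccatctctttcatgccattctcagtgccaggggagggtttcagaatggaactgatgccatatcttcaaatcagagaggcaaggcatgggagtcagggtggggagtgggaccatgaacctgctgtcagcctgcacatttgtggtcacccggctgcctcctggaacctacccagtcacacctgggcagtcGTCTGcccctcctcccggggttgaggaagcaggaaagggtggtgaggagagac

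In the 250 bases before the first Muc13 start, TGACTCA began at position -61, counted back from the start, and CAGAC was not found. Before the second Muc13 start, CAGAC began at -205 and TGAGTCA at -179. The Muc20 window held GTCTG, the reverse complement of CAGAC, at -53. Muc4 had CAGAC at -186 and TATAAA at -36, and Muc1 had only TATAAA, at -31. The GC-rich SMAD motif GGCGCC was in none of the 5 windows. Searched on both strands in 32851 mouse promoter windows of the same length, CAGAC was found in 42.2%, TGANTCA in 6.75%, TATAAA in 12.4% and GGCGCC in 9.59%, and in the 5 windows no match overlapped one to another motif. A match describes letters and not binding.

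On the NCBIM37 build (mm9), Muc1 lies on chromosome 3 from 89032979 to 89037303 on the plus strand, with 7 exons in its longest transcript. The other 3 genes lie on chromosome 16. Muc4 runs from 32735972 to 32782477 on the plus strand and has up to 27 exons. Muc20 runs from 32777505 to 32797521 on the minus strand with 4 exons, and Muc13 lies a further 996601 bp away, from 33794123 to 33820020 on the plus strand, with 13 exons. The 3′ ends of Muc4 and Muc20 overlap over 4973 bp, of which 627 bp are exonic in both genes. That is 5.33% of the exonic bases of Muc4 and 15.6% of those of Muc20, through 1 of the 2 Muc20 transcripts. Whether strand was used in counting is not stated, so reads in this stretch cannot be assigned with certainty to either gene, and an antisense transcript, Gm15657, overlaps Muc13.

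Depth was similar across libraries. Reads rebuilt from the deposited values came to between 14528550 and 16384794 in each BME library and between 16960802 and 21022169 in each plastic library, and 15723 to 16805 genes were above 0. Smad4, the target of the inducible construct, was higher in all 5 dox pairs. In BME it measured 17.2 and 27.3 FPKM with dox against 6.23 to 10.3 FPKM in the 4 control libraries, and on plastic 18.1 to 73.6 FPKM against 1.54 to 4.76 FPKM. The mock library had 10.3 FPKM and its untreated partner 8.88 FPKM. FPKM counts fragments scaled to transcript length and library total, so levels of different genes may be compared within a library, whereas the BME and plastic values were normalized separately and only changes were compared between them. Summed FPKM of the epithelial markers was 4339 to 5504 in BME controls, 8008 to 10060 in BME dox libraries and 12090 to 17490 on plastic. Against this, 7 fibroblast markers summed to at most 5.79 FPKM, 5 endothelial markers to at most 3.65 and 7 immune markers to at most 39.5, so the libraries were epithelial by these lists.

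Muc13 had the largest dox change in value of the 4 mucins in either environment, and it was higher in all 5 dox pairs, as were 8.7% of 11977 genes. In line 700 in BME it measured 7.24 FPKM untreated and 193 FPKM with dox, which is 26.6-fold higher. In line 889 it was already at 185 FPKM untreated and reached 542 FPKM with dox, 2.93-fold higher. Both dox libraries stood above all 4 control libraries, which ran from 7.24 to 185 FPKM, though the lower dox value exceeded the highest control value only narrowly. Of 12996 genes, 6.33% had their dox libraries above all controls in the same way.

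The mock library of line 682 also had more Muc13 than its untreated partner, 55.1 against 7.50 FPKM, or 7.34-fold higher. Smad4 in that pair differed by 0.19 on the log2(FPKM + 1) scale, against 1.28 and 1.97 in the BME dox pairs. The Muc13 change in the mock pair, 2.72, lay between those of the dox pairs of line 889, 1.55, and line 700, 4.56. What dox alone contributed to it was not tested.

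On plastic, Muc13 in line 560 measured 34.3 FPKM untreated and 401 FPKM with dox (11.7-fold). Line 889 had 1.86 FPKM without dox and 28.1 FPKM with it (15.1-fold), and line 700 had 1.60 and 4.96 FPKM (3.10-fold). Each line was higher with dox, but the lines stood so far apart that the dox values of lines 700 and 889 lay below the untreated value of line 560, and the groups overlapped. In rebuilt reads Muc13 rested on 92 to 25246 reads per library, so counting error is small beside the spread between lines.

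**Figure D1:**
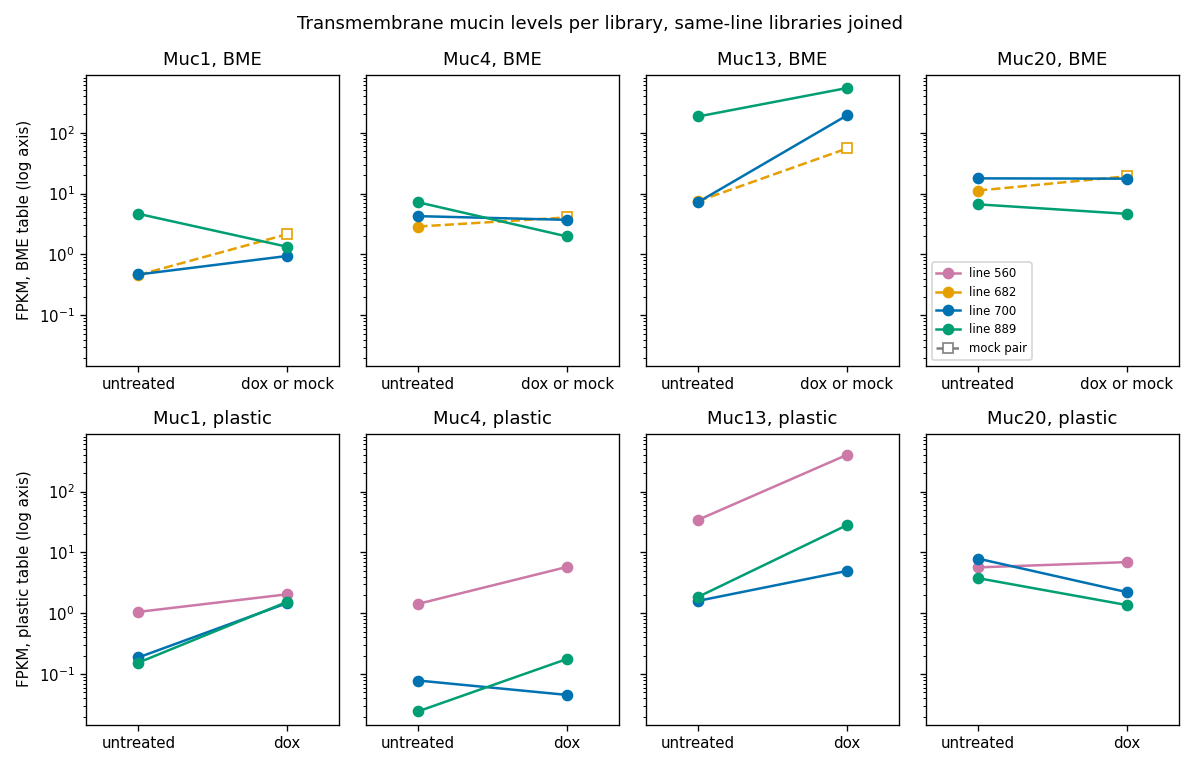
FPKM of Muc1, Muc4, Muc13 and Muc20 (log axis) in the 12 libraries, with same-line untreated and dox libraries joined by a solid line and the untreated and mock libraries of line 682 by a dashed line (open square). Muc13 climbs in every pair, from 7.24 to 193 FPKM in line 700 in BME and from 34.3 to 401 FPKM in line 560 on plastic, whereas Muc4 is higher in 3 and Muc20 in 2 of the 6 pairs.

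Muc13 was higher by over 1 on the log2(FPKM + 1) scale in all 5 dox pairs, as were 27 of 11977 genes (0.225%), and it also passed 1 in the mock pair, as did 17 genes (0.142%). None of the other 3 mucins met this. By the limma fit the change of Muc13 was 3.47 (SE 1.37) in BME, the 8th highest of 12996 genes, and 2.68 (SE 1.69) on plastic, the 57th highest of 12333. Over the same genes 90% of changes lay between -0.55 and 0.61 in BME and between -0.68 and 0.87 on plastic.

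Neither change passed the test. In BME the unadjusted p of limma was 0.0422 and its adjusted p 0.959, and on plastic these were 0.158 and 0.741. The exact two-sided permutation test gave p = 0.133 in BME, the smallest that 2 against 4 libraries allow, and p = 0.3 on plastic, where 3 against 3 allow no less than 0.1. Both this test and the fit treat libraries as unpaired, and in BME both line 682 libraries count as controls. With the line as a block, limma gave 2.68 on plastic (SE 0.49, unadjusted p = 0.0022, adjusted p = 0.160). In BME the blocked fit gave 3.05 (SE 1.11, unadjusted p = 0.0410 and adjusted p = 0.673 by limma). The mean change over pairs was 3.05 ± 2.13 (SD, n = 2) in BME and 2.68 ± 1.29 (SD, n = 3) on plastic. The fitted plastic value was 1.04 without the dox library of line 560, 3.92 without the untreated one, and 4.08 without the dox library of line 700.

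Markers of intestinal cell types differed beside Muc13 in most pairs. Summed FPKM of 11 goblet cell genes, which include Muc2, Tff3 and Agr2, was lower with dox in both BME lines (2034 against 762 in line 700, 4767 against 2002 in line 889), and also in the mock pair (2774 against 1074). On plastic it was lower in lines 560 (4753 against 1510) and 700 (28.9 against 11.9) and higher in line 889, 5.55 against 317. Summed FPKM of 10 enterocyte genes was higher with dox in BME (277 to 392 in line 700, 54.5 to 86.0 in line 889) and in the mock pair (206 to 419), and on plastic it was higher in lines 560 and 889 and lower in line 700, at 2.44 to 25.7 in all. Most of each increase in BME came from 1 gene. Anpep, a brush border peptidase, was 262 FPKM without and 361 FPKM with dox in line 700, and 185 and 402 FPKM in the mock pair, where Alpi (-0.44), Fabp2 (-0.39) and Krt20 (-0.22) had values below 0 on the log2(FPKM + 1) scale and Apoa1 was 1.64 FPKM in the untreated and 0.323 FPKM in the mock library. In line 889 the sucrase gene Sis was 12.4 FPKM without and 50.7 FPKM with dox, while the glucose transporter gene Slc5a1 was 18.3 and 7.55 FPKM. All 10 epithelial markers had a fitted change above 0 in BME, beside 49.0% of all genes tested, and keratins Krt8, Krt18 and Krt19 had an unadjusted p under 0.05, beside 2.62% of all genes in the higher direction. Within lines 9 of these 10 were higher with dox in line 700 and 7 in line 889, and 5 were higher in the mock pair. On plastic 6 of 9 were above 0, beside 51.1% of all genes, and Krt19 was lower in all 3 lines (-0.95, SE 0.35, unadjusted p = 0.0314 and adjusted p = 0.567 by limma). In BME 9 of 10 tested goblet genes had a change below 0 and 2 had an unadjusted p under 0.05 in that direction, beside 1.47% of all genes. On plastic 9 of 10 had a fitted change above 0, and none had an unadjusted p under 0.05. Line 889, in which all 10 were higher with dox, carried that count, and 8 of the 10 were lower with dox in each of lines 560 and 700. Of 7 enterocyte genes 1 in BME had an unadjusted p under 0.05, in the higher direction, beside 2.62% of all genes, and none did on plastic. Summed FPKM of 9 squamous epithelium genes was lower with dox in all 3 plastic lines. It was 6800 without and 1476 with dox in line 560, 4233 and 311.3 in line 700, and 5476 and 1654 in line 889. Most of each sum was Sprr1a (-2.87, SE 0.75, unadjusted p = 0.00727 and adjusted p = 0.412 by limma). Of 5 squamous genes tested there, 4 were lower with dox in each of lines 560 and 700, and 2 in line 889. In BME the sum was higher with dox in both lines and lower in the mock pair. None of these marker genes was called by limma. The part of these in the Muc13 values was not tested, and in bulk samples fewer cells of a type and less RNA per cell cannot be told apart.

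Muc1, whose tail carries docking sites for β-catenin and kinases, was low in these organoids and higher in value with dox in all 3 plastic pairs, as were 18.6% of 12333 genes. In line 560 on plastic it measured 1.05 FPKM without dox and 2.05 FPKM with it. The same values were 0.188 and 1.47 FPKM for line 700, and 0.154 and 1.54 FPKM for line 889. All 3 dox libraries stood above all 3 untreated libraries, as in 7.87% of 12333 genes. The fitted change was 0.92 (SE 0.29), with an unadjusted p of 0.0177 and an adjusted p of 0.513 by limma, and the exact permutation p was 0.1, the smallest possible. The untreated values of lines 700 and 889 rest on 8 and 7 rebuilt reads, so the size of the fold is loose. With a pseudocount of 0.1 the change was 2.01, and on rebuilt reads by limma-voom it was 2.29.

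In BME, Muc1 went both ways. Line 700 had 0.469 FPKM of it without dox and 0.945 FPKM with dox, whereas line 889 had 4.65 FPKM without and 1.34 FPKM with dox. The mock library had 2.15 FPKM against 0.459 FPKM in untreated line 682, on 68 and 15 rebuilt reads. The fitted change was -0.22 (SE 0.59, adjusted p = 0.981 by limma), and the highest and lowest values were both in the control arm. Without the untreated library of line 889 the sign turned, to 0.17.

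Muc4, the longest of these genes and the partner of ERBB2, was lower with dox in both BME lines and did not pass the test. Line 700 had 4.26 FPKM of it without dox and 3.70 FPKM with dox, and line 889 had 7.19 and 1.98 FPKM. The mock pair was 2.88 and 4.06 FPKM. Dox and control libraries overlapped, and the fitted change was -0.53 (SE 0.34, adjusted p = 0.959), which was -0.20 without the dox library of line 889, -0.86 without that of line 700 and -0.33 without untreated line 889. Of the 12996 genes in BME, 29.5% were lower in both dox pairs.

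On plastic, Muc4 was above 1 FPKM only in line 560, with 1.43 FPKM untreated and 5.77 FPKM with dox. Line 700 had 0.0785 and 0.0456 FPKM without and with dox, and line 889 had 0.0245 and 0.178 FPKM, on 6 to 33 rebuilt reads. The fitted change was 0.55 (SE 0.77, adjusted p = 0.901), and the gene falls under the filter on low values once the dox library of line 560 is left out. It was 0.33 to 1.02 without 1 of the other libraries, and 1.30 by limma-voom.

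Muc20, which acts on MET signaling, was the highest of the 4 genes in 4 of the 6 untreated libraries and, unlike Muc13, was not higher with dox in most pairs. In BME, line 700 had 17.8 FPKM of it without dox and 17.6 FPKM with dox, and line 889 had 6.65 and 4.65 FPKM. The mock library had 19.2 FPKM, the highest value in BME, and untreated line 682 had 11.2 FPKM. The fitted BME change was -0.42 (SE 0.58, adjusted p = 0.964). Without the dox library of line 889 it was 0.44, and without the dox library of line 700 it was -1.28, but these fits set lines of unequal untreated level against each other. Within lines the change was -0.02 in line 700 and -0.44 in line 889, and with the line as a block it was -0.23 (SE 0.28).

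On plastic, Muc20 in line 700 was at 7.90 FPKM without dox and 2.22 FPKM with dox, and in line 889 at 3.77 and 1.36 FPKM. Line 560 went the other way, with 5.67 and 6.92 FPKM. The fitted change was -0.74 (SE 0.49, adjusted p = 0.755), the exact permutation p was 0.3, and the groups overlapped through line 560. The change was -1.25 without the dox library of line 560 and -0.38 without that of line 889.

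**Figure D2:**
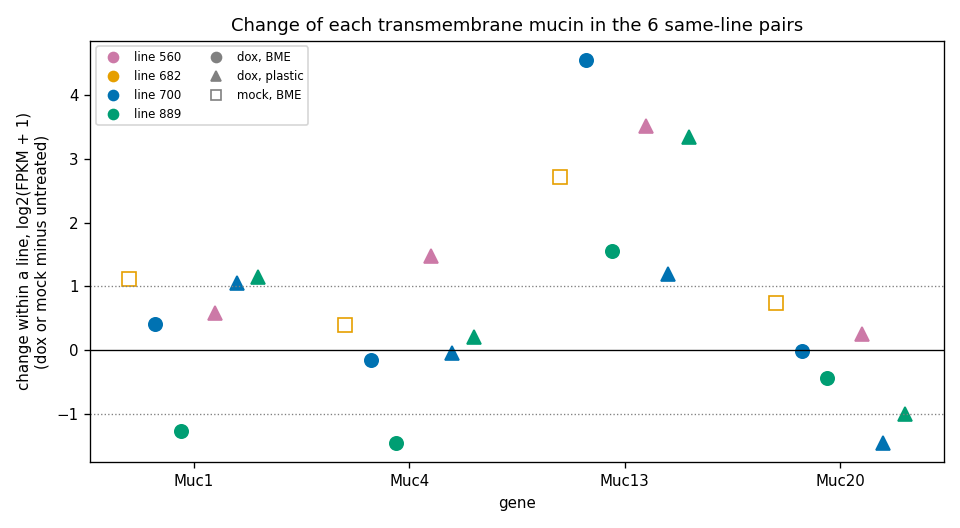
Change within each line, on the log2(FPKM + 1) scale, as dox minus untreated in BME (circles) and on plastic (triangles), and as mock minus untreated in BME (open squares). Dotted lines mark a change of 1 in either direction. Muc13 lies above 1 in all 6 pairs, between 1.20 and 4.56, and the other 3 genes lie on both sides of 0.

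By limma, 0 of the 4 mucins were called in BME (adjusted p under 0.05 and a change over 1), where 0.0231% of 12996 genes were, and 0 of 4 on plastic, where 0.0324% of 12333 genes were. At an unadjusted p under 0.05 these were Muc13 in BME and Muc1 on plastic, each 1 of 4 in the higher direction, beside 2.62% and 4.56% of genes. limma-voom also called 0 of 4 in each. The median change of the 4 was -0.32 in BME and 0.73 on plastic, against -0.01 and 0.01 over all genes tested. With so few of all genes called, a count of 0 among 4 genes carries little information.

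All 4 mucins were higher than in the untreated partner in 2 of the 6 pairs, the line 560 pair on plastic and the mock pair. In the mock pair they were higher by 1.11 for Muc1, 0.38 for Muc4, 2.72 for Muc13 and 0.73 for Muc20. Of the 12996 genes 48.1% were higher in the mock pair. Muc1 and Muc13 were each higher there by over 1, as were 1.29% of genes.

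**Figure D3:**
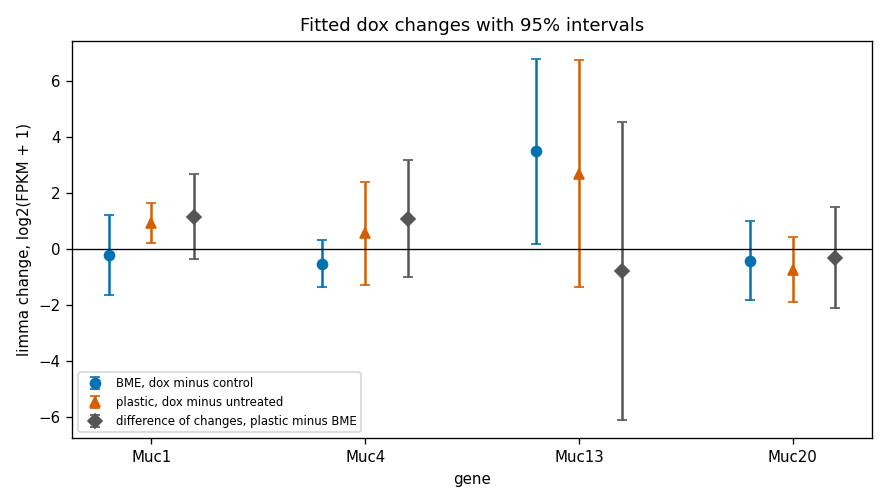
Change of each mucin by limma on the log2(FPKM + 1) scale in BME (2 dox against 4 control libraries), on plastic (3 against 3) and their difference (plastic minus BME), with bars for the 95% interval. The intervals of Muc13 in BME and Muc1 on plastic lie above 0 before adjustment, and all 4 differences span 0 in this fit, which has no block for the line.

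The dox changes of the 2 environments did not pass the test of a difference for any of the 4 genes. The difference, plastic minus BME, was 1.14 for Muc1 with a 95% interval of ±1.51, 1.07 ± 2.08 for Muc4, -0.79 ± 5.32 for Muc13 and -0.32 ± 1.81 for Muc20. The adjusted p of limma for the interaction was 1.00 for each after rounding, 0 of 4 were called beside 0.0% of 11977 genes, and 0 of 4 had an unadjusted p under 0.05, beside 2.53%. With the line as a block the difference was 1.36 ± 1.32 for Muc4 (unadjusted p = 0.0448, adjusted p = 0.910 by limma) and 1.36 ± 1.43 for Muc1 (unadjusted p = 0.0604, adjusted p = 0.920), and 649 of the 11977 genes then had an unadjusted p under 0.05. The interval for Muc13 is wide enough to hold a change many times larger or smaller on plastic.

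The order of the 4 levels was compared within each arm. In the BME control arm Muc13 averaged 63.6 ± 83.8 FPKM, Muc20 13.7 ± 5.87, Muc4 4.60 ± 1.83 and Muc1 1.93 ± 1.98 (SD, n = 4), and each neighbouring pair overlapped across libraries. Read within each library, Muc4 was above Muc1 in every BME library, and Muc20 was above Muc4 in all but untreated line 889. In the BME dox arm Muc13 averaged 367 ± 247 FPKM, Muc20 11.1 ± 9.14, Muc4 2.84 ± 1.22 and Muc1 1.14 ± 0.278 (SD, n = 2), and no neighbours overlapped. On plastic the untreated means were 12.6 ± 18.8 FPKM for Muc13, 5.78 ± 2.07 for Muc20, 0.511 ± 0.796 for Muc4 and 0.465 ± 0.509 for Muc1 (SD, n = 3). With dox they were 145 ± 222 FPKM for Muc13, 3.50 ± 2.99 for Muc20, 1.998 ± 3.27 for Muc4 and 1.69 ± 0.316 for Muc1 (SD, n = 3). Line 560 carried the Muc4 means, and in lines 700 and 889 Muc1 was above Muc4 both without and with dox. On plastic Muc20 stood clear of Muc4 and Muc1 without dox and of none of the other 3 with it.

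Muc13 was the highest of the 4 in 8 of 12 libraries, which were all 5 dox libraries, the mock library and the untreated libraries of line 889 in BME and line 560 on plastic. Muc20 was highest in the remaining 4. Muc13 made up 24.3% of the summed FPKM of the 4 genes in untreated line 700 in BME and 89.7% with dox, and 34.0% in untreated line 682 against 68.4% in its mock library. On plastic its share went from 16.4% to 57.0% in line 700 and from 32.0% to 90.1% in line 889. It was already 90.9% in untreated line 889 in BME, against 98.6% with dox, and 80.8% in untreated line 560 on plastic, against 96.5%. In line 700 on plastic the sum itself was lower with dox, 8.70 against 9.76 FPKM, since Muc20 was 7.90 FPKM without and 2.22 FPKM with dox. Among all genes, Muc13 ranked 168th by FPKM in the dox library of line 889 in BME and 10355th in untreated line 700 on plastic.

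**Figure D4:**
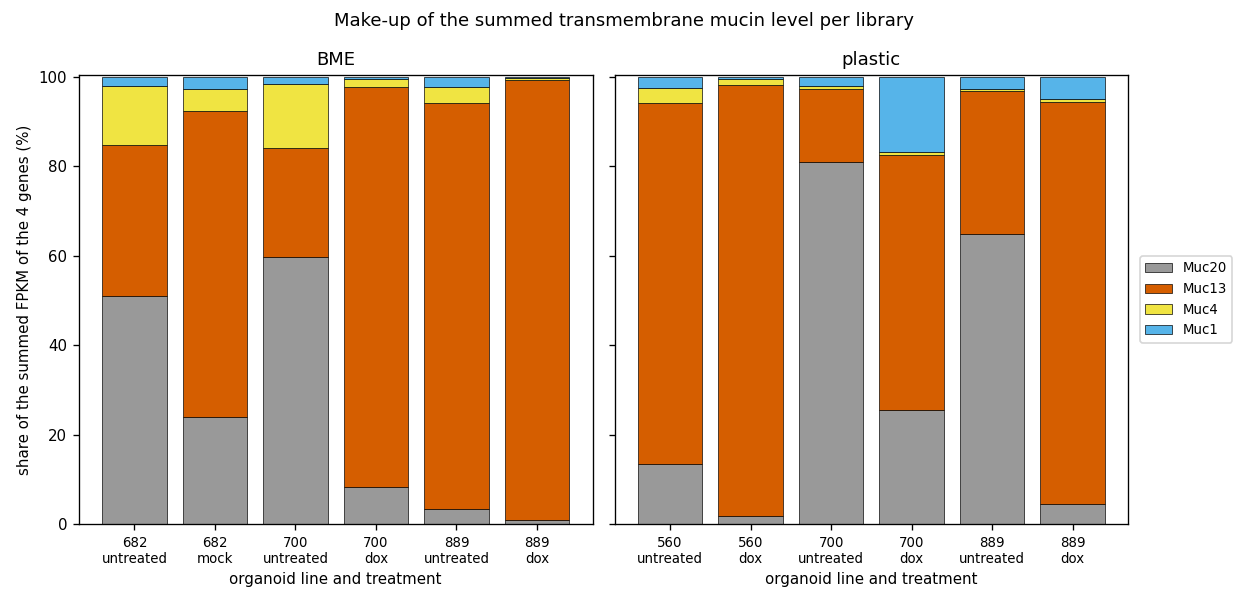
Share of each gene in the summed FPKM of Muc1, Muc4, Muc13 and Muc20 (bars, 0 to 100%) in each library, ordered by line. Muc13 takes 89.7% and 98.6% in the BME dox libraries and between 57.0% and 96.5% in the plastic dox libraries, and Muc20 takes 80.9% in untreated line 700 on plastic.

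Other cell-surface mucins were examined next. Of 10 such genes 4 were listed and 2 passed the filter. Muc3, Muc3a, Muc12, Muc16, Muc17 and Muc21 were not listed under these symbols, so their levels are not known here. Cd164, a small sialomucin, measured 143 to 169 FPKM in untreated BME libraries, above the 4 transmembrane mucins there except Muc13 in line 889. Its change was 0.15 (SE 0.14) in BME, and on plastic it was 126 to 190 FPKM with dox against 45.4 to 93.2 FPKM untreated (1.04, SE 0.33, adjusted p = 0.505). Mcam, also known as Muc18, an adhesion molecule, had a fitted change of -1.16 in BME (SE 0.80, adjusted p = 0.959), with -1.28 in line 700, 0.20 in line 889 and -1.08 in the mock pair. On plastic it measured 0.142 to 0.370 FPKM with dox against 0.481 to 1.68 FPKM untreated (-0.75, SE 0.29, adjusted p = 0.583). Of 7 secreted mucins only Muc2, the gel-forming mucin of goblet cells, passed the filter. Muc2 was lower than its untreated partner in both BME dox pairs (4.60 against 0.913 FPKM in line 700, 49.2 against 8.65 FPKM in line 889) and in the mock pair (8.13 against 0.408 FPKM), where Muc13 was higher each time. On plastic it was lower in lines 560 and 700 and higher in line 889, 0.120 against 5.12 FPKM. By limma it differed by -0.85 in BME (SE 1.40, adjusted p = 0.965), and the plastic value was 0.19 (SE 1.79, adjusted p = 0.987).

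Enzymes that start the O-linked chains, the polypeptide GalNAc-transferases, included no called gene in BME or on plastic. Of 10 tested in BME 7 had a fitted change above 0, and of 9 tested on plastic 7 did, where 49.0% and 51.1% of all genes tested were above 0. Within BME lines 7 of the 10 were higher with dox in line 700 and 6 in line 889, and 8 were higher in the mock pair. On plastic 8 of the 9 were higher in line 560, 6 in line 700 and 5 in line 889. In the higher direction 1 in BME and 3 on plastic had an unadjusted p under 0.05, beside 2.62% and 4.56% of all genes, and none did in the lower direction. These counts were not tested as a group. In BME, Galnt10 measured 14.97 and 12.8 FPKM with dox against 7.53 to 10.01 FPKM in controls (0.57, SE 0.17, adjusted p = 0.959), and Galnt3 measured 44.2 and 48.4 against 20.2 to 37.7 FPKM. On plastic, Galnt1 was 32.6 to 59.2 FPKM with dox against 19.9 to 23.9 FPKM untreated (0.91, SE 0.26, adjusted p = 0.454). Galnt6 was higher in all 3 plastic lines, 0.972 against 5.95 FPKM in line 700.

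The enzymes that build and cap the chains gave 12 of 19 genes with a fitted change above 0 in BME and 12 of 17 on plastic, against the same 49.0% and 51.1% of all genes. Within BME lines 14 of the 19 were higher with dox in line 700 but 8 in line 889, where 11 were lower, and 14 were higher in the mock pair. On plastic 11 of the 17 were higher in line 560 and 12 in each of lines 700 and 889. At an unadjusted p under 0.05 there were 1 in BME and 5 on plastic, all higher, beside 2.62% and 4.56% of all genes. By limma 0 were called in either. B4galt1, a galactosyltransferase, was 56.4 and 41.7 FPKM with dox against 21.8 to 35.1 FPKM in BME controls (0.70, SE 0.24, adjusted p = 0.959). Gcnt1, which builds the branched core, had a fitted change of 0.67 (SE 0.70) in BME, but within lines it was 0.23 in line 700, -0.66 in line 889 and -0.06 in the mock pair, with both line 682 controls low at 6.99 and 7.35 FPKM. On plastic the 2 with the largest changes were the sialyltransferases St6galnac4 (1.46, SE 0.59, adjusted p = 0.593) and St6galnac6 (1.13, SE 0.39, adjusted p = 0.547), which were higher in all 3 lines.

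Sheddases and binding partners of these mucins numbered 17, all tested, with medians of 0.09 in BME and 0.26 on plastic. At an unadjusted p under 0.05, 0 were higher and 1 lower in BME, and 3 were higher and 1 lower on plastic, with 0 called. Over all genes tested these shares were 2.62% higher and 1.47% lower in BME, and 4.56% and 3.73% on plastic. Ctnnb1, which encodes the β-catenin that binds the Muc1 tail, was 574 to 1205 FPKM with dox against 149 to 286 FPKM untreated on plastic, with no overlap, as in 7.87% of all genes tested (1.88, SE 0.38, adjusted p = 0.282). In BME Ctnnb1 was lower with dox in line 700, 355 against 402 FPKM, and higher in line 889, 717 against 304 FPKM, with a fitted change of 0.46 (SE 0.30, adjusted p = 0.959). Adam9, a membrane protease, was higher in each of the 6 pairs, as were 6.85% of the genes tested in both environments. In BME it was 58.6 FPKM without and 122 FPKM with dox in line 700, and the mock pair was 25.7 and 72.3 FPKM. On plastic line 560 had 36.9 and 149 FPKM. The limma change was 1.02 in BME (SE 0.45, adjusted p = 0.959), and 1.09 on plastic (SE 0.67, adjusted p = 0.734). Lgals3, a galectin that binds mucin sugars, had a fitted change of 1.00 (SE 0.50) in BME, but within lines it was 0.32 in line 700, 0.37 in line 889 and -0.27 in the mock pair. On plastic it was 305 to 344 FPKM with dox against 167 to 241 FPKM untreated, higher in all 3 lines (0.67, SE 0.21, unadjusted p = 0.0178 and adjusted p = 0.514 by limma).

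**Figure D5:**
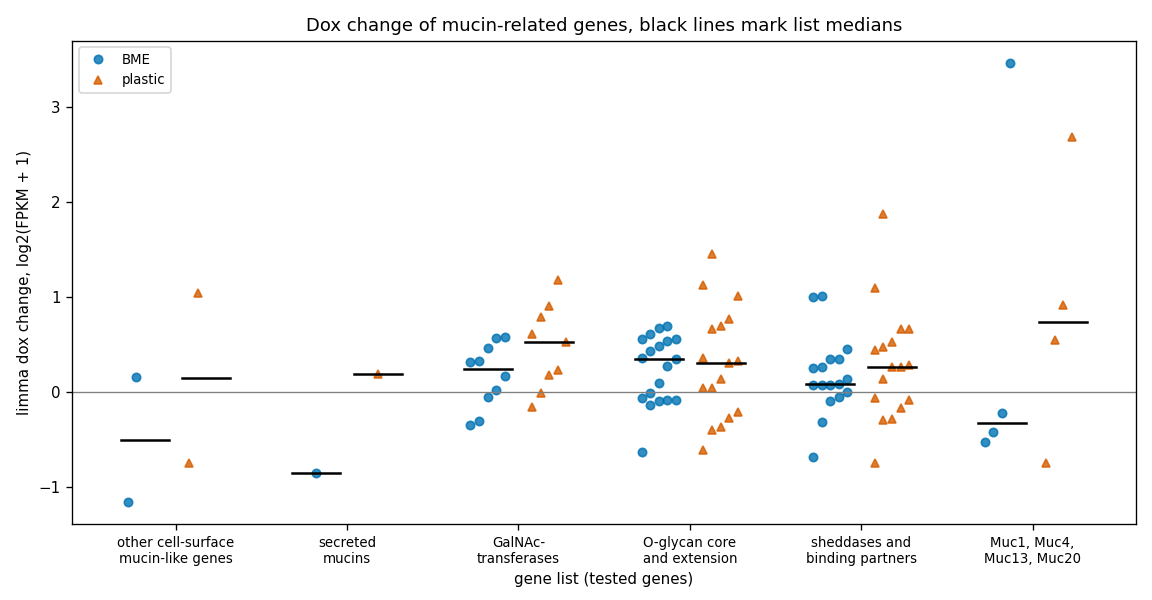
Dox change by limma on the log2(FPKM + 1) scale for each tested gene of 5 mucin-related lists and the 4 transmembrane mucins, in BME (circles) and on plastic (triangles), with list medians as black lines. Muc13 has the highest change shown, 3.47 in BME and 2.68 on plastic, and the GalNAc-transferases have medians of 0.25 and 0.53.

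The genes whose pattern was most like each mucin were ranked by the mean of 2 Pearson correlations of log2(FPKM + 1), over the 6 BME and the 6 plastic libraries, among 11976 genes. The libraries are shared between the genes and come from few lines, so these values describe the profiles. For Muc13 they were Btbd17 (mean r = 0.969), 2210407C18Rik (0.958) and Pxmp4 (0.952). Of these, 2210407C18Rik ran from 4.79 FPKM in untreated line 700 to 1409 FPKM in the dox library of line 889 in BME, the same libraries in which Muc13 was lowest and highest. For Muc1 they were Arl4a (0.921), Pdia4 (0.897) and Nectin1 (0.880), and for Muc4 they were Atp8a1 (0.904), Mgam (0.894) and Eml4 (0.877). For Muc20 they were Marcksl1-ps4 (0.943), Car2 (0.924) and Lyrm7 (0.919). Among the 4 mucins themselves the profile of Muc4 followed that of Muc13 on plastic (r = 0.916, 6 libraries), where line 560 was highest in both, and not in BME (r = -0.081, 6 libraries).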

How the data were processed

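RNA-Seq was measured in 12 libraries. The authors state kallisto for quantification and DESeq2 for their tests. The submitters' processing notes name mm9, and versions, strand setting and annotation are not given in the sources used here. The authors deposited FPKM for 24906 genes in a separate table for each environment, normalized on its own 6 libraries. Their comparison tables hold a mean normalized count (a signal over libraries), which was used only to rebuild reads, and the authors' own fold changes and p-values, which were not used. Rebuilding reads gave whole numbers, within 0.05, for 86.3% to 88.9% of low values. Such reads served for depth and limma-voom.

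Genes whose FPKM averaged 0.5 or more over the 6 libraries were tested on log2(FPKM + 1) with limma 3.58.1 (eBayes with trend, two-sided, no block) in R 4.3.3, adjusted by Benjamini-Hochberg and called at an adjusted p under 0.05 and a change over 1. The change scale understates low genes. The study gives 4 vehicle and 2 dox libraries in BME without naming a mock library. Its methods mention a mock plasmid for the lentiviral step, but do not link it to a library. With 3 untreated libraries by the labels, the mock library was taken as the remaining control. The fit was tested on simulated data. Exact permutation tests were run over libraries for each mucin, without regard to line (scipy 1.17.1). Lines pair the samples, since the number in a label names 1 organoid line. Deviations of same-line libraries correlated at 0.70 and 0.676 in BME and at 0.461, 0.612 and 0.247 on plastic. No label says that lines were cultured more than once, so p-values measure the spread between these libraries.

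Named genes are the 4 mucins, the 2 tested genes of each mucin-related list with the largest change per environment, the 3 genes most like each mucin, and Smad4. The marker genes named beside Muc13, keratins included, are outside this rule and were chosen after their values were seen. Members and lists were chosen with earlier results of these data known. Alternatives were the pseudocount, no filter, the line as block, rescaling by median-of-ratios, the place of the mock library and leaving out each library. Rescaling to a common sum, limma-voom and the block without the mock library were chosen after seeing the data. Promoter sequences are from RefSeq (GRCm38.p6), in which all 4 genes matched by symbol, and gene positions from the NCBIM37 annotation.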

Additional observations from a re-analysis of the deposited data

How the results depend on the processing

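None of the 4 mucins was called under any alternative, and Muc13 kept its direction in BME (2.73 to 4.36) and on plastic (1.04 to 4.08) throughout. With the mock library counted with dox, Muc1 in BME turned to 0.081 and Muc20 to 0.091. Leaving out 1 library at a time, the BME change ranged from -0.48 to 0.17 for Muc1 and from -1.28 to 0.44 for Muc20, and the difference between environments from -2.43 to 0.61 for Muc13 and from -1.18 to 0.54 for Muc20. Where this left 1 dox library in BME, that library was assumed to vary like the others. Muc4 fell under the filter on plastic, and in the difference, without the dox library of line 560, and with lines 700 and 889 only, so no value was fitted there.

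With the line as replicate block, the Muc13 change on plastic stayed 2.68 with an SE of 0.49 (unadjusted p = 0.0022, adjusted p = 0.160 by limma), and in BME it was 3.05 (adjusted p = 0.673). The block changed no call of a mucin. The count of genes called in BME, 3 as reported, was 0 with the block, with the mock library left out or counted with dox, and with the block and the mock library left out, 1 with a pseudocount of 0.1 and 1 by limma-voom, and 0 to 37 without 1 library. On plastic, 4 as reported, it was 7 with the block, 10 with a pseudocount of 0.1, 10 by limma-voom, 0 without the filter and 0 to 55 without 1 library. For the difference, 0 as reported, it was 5 without the filter. The cause was not tested. Low depth limits Muc1 (7 to 164 rebuilt reads) and Muc4 on plastic.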
